A study of Chlamydomonas reinhardtii with 28 samples.

Results

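The H3K9me1 peaks left in set3 cells and in dnmt1 cells of Chlamydomonas reinhardtii, a haploid green alga, were compared directly with each other within each of 2 strains. The cells were SET3 knockouts (set3) and DNMT1 knockouts (dnmt1), and wild-type (WT) cells gave the H3K9me1 map without either loss. Each genotype was profiled in CC-5155, a strain of the plus mating type (mt+), and CC-5325, a strain of the minus mating type (mt-), all as vegetative cells grown in Tris-acetate-phosphate medium. Sequencing of immunoprecipitated chromatin (ChIP-seq) was done with 1 library per mark, genotype and strain, of which 4 libraries were compared here out of 18 ChIP libraries with a peak list. Those 4 lists held 12909 of the 152930 peaks deposited for the series. The labels name each mutant only as a knockout in 1 strain of each mating type, and peak lists hold no reading of the deleted gene, so the loss itself could not be checked in them.

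Monomethylation of lysine 9 of histone H3 is the main repressive lysine 9 mark of Chlamydomonas chromatin, where it lies over transposons, repeats and silenced transgenes. SET3 carries a SET domain, the catalytic domain of most histone lysine methyltransferases, and is known for depositing this mark. DNMT1 is the maintenance methyltransferase that copies cytosine methylation onto the new DNA strand after replication. Setting the mutants side by side asks which H3K9me1 sites outlast the loss of SET3, the loss of DNMT1, or either.

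The set3 lists held more peaks than the dnmt1 lists, and the dnmt1 lists held more of the wide ones. There were 2785 peaks over 1.54 Mb in set3 mt+, against 1248 peaks over 0.982 Mb in dnmt1 mt+. There were 6160 peaks over 3.13 Mb in set3 mt-, against 2716 peaks over 1.77 Mb in dnmt1 mt-. WT peaks of the mt+ strain covered 7.51 Mb, and those of the mt- strain 7.91 Mb. Peaks of at least 5 kb numbered 6 in set3 mt+, 18 in dnmt1 mt+, 7 in set3 mt-, 32 in dnmt1 mt-, 282 in WT mt+ and 308 in WT mt-. No read counts come with the lists, so the depth of each peak call was taken from the local background that its deposited values imply. The lowest background, a scaled pileup of fragments, was 19.2 in set3 mt+, 18.9 in dnmt1 mt+, 20.8 in set3 mt- and 34.2 in dnmt1 mt-. The dnmt1 mt- list was thus called at the highest background of the 4, and the part of this gap in the mt- comparison was not tested. There was no replicate of a genotype within a strain, and setting the 2 strains of set3 against the 2 of dnmt1 in an exact two-sided permutation test could not give a p-value under 0.333. Values are therefore given for each strain side by side, with a fit that takes strain as a block for the covered lengths by region. Intervals on shares are 95% Wilson intervals, which cover counting error only and treat neighbouring peaks as independent.

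About 1 in 4 set3 peaks lay at a dnmt1 peak of the same strain, and nearly as many dnmt1 peaks lay at a set3 peak as did not. A peak was called shared when at least 1 bp of it was overlapped by a peak of the other mutant. In mt+, 674 of 2785 set3 peaks (24.2%, 22.6 to 25.8) and 579 of 1248 dnmt1 peaks (46.4%, 43.6 to 49.2) were shared. In mt-, 1486 of 6160 set3 peaks (24.1%, 23.1 to 25.2) and 1329 of 2716 dnmt1 peaks (48.9%, 47.1 to 50.8) were shared. For a background, the sequences were divided into bins of 500 bp. A dnmt1 peak touched 1.34% of the bins in mt+ and 2.65% in mt-, and a set3 peak touched 2.48% in mt+ and 5.28% in mt-, so the shared counts stood well above the share of the genome that the other list reaches. By length, 404 kb was common to both mutants in mt+, which made up 26.3% of the set3 length and 41.1% of the dnmt1 length. In mt-, 866 kb was common, 27.7% of the set3 length and 49.1% of the dnmt1 length. With each pair of lists cut to equal numbers of peaks by q-value, 35.9% of set3 and 33.5% of dnmt1 peaks were shared in mt+, and 36.7% of set3 and 33.4% of dnmt1 peaks in mt-.

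**Figure D1:**
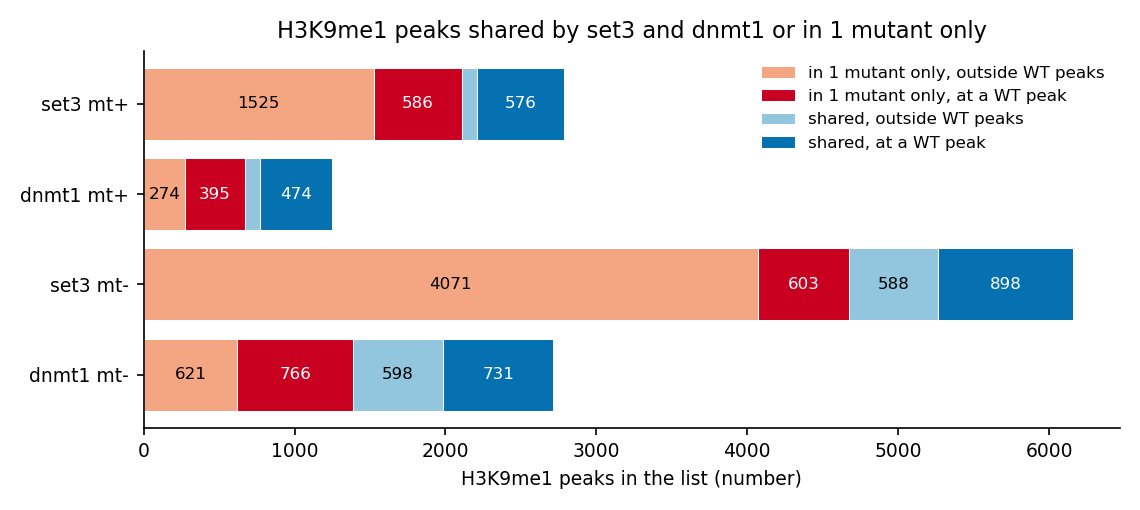
Number of H3K9me1 peaks (x axis) in each set3 and dnmt1 list, split by whether a peak is shared with the other mutant of the strain and whether it lies at a WT H3K9me1 peak. Peaks in 1 mutant only and outside WT peaks make up 1525 of 2785 in set3 mt+ and 4071 of 6160 in set3 mt-, against 274 of 1248 in dnmt1 mt+ and 621 of 2716 in dnmt1 mt-.

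Sharing went with the strength of the call in set3 more than in dnmt1. Peaks were ranked within each list by the authors' q-value and divided into 4 groups of equal size. In set3, 48.2% of the strongest group and 12.4% of the weakest were shared in mt+, and 47.9% and 13.8% in mt-. In dnmt1 the 4 groups, from strongest to weakest, had 49.4%, 57.4%, 42.3% and 36.5% shared in mt+ and 58.9%, 47.4%, 46.7% and 42.7% in mt-. A dnmt1 peak of the weakest group was therefore shared more often than a set3 peak of the group next to the strongest, at 20.1% in mt+ and 21.0% in mt-. The shares are taken against lists of unlike reach, since set3 peaks touched 2.48% (mt+) and 5.28% (mt-) of bins and dnmt1 peaks 1.34% and 2.65%. With whole lists cut to equal numbers, sharing was 35.9% in set3 and 33.5% in dnmt1 in mt+, and 36.7% and 33.4% in mt-. The groups were not compared at equal list size. Shared peaks were also wider, with medians of 556.5 bp in set3 and 537 bp in dnmt1 in mt+ and 538.5 bp in set3 and 411 bp in dnmt1 in mt-. The peaks in 1 mutant only had medians of 374 bp in set3 and 342 bp in dnmt1 in mt+ and 347 bp in set3 and 312 bp in dnmt1 in mt-. A wider peak is met by another list more easily, and the part of width in the sharing was not tested.

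The peaks found in 1 mutant only differed in where they lay relative to WT H3K9me1. Of such peaks in set3 mt+, 586 of 2111 lay at a WT peak of the strain (27.8%, 25.9 to 29.7), against 395 of 669 in dnmt1 mt+ (59.0%, 55.3 to 62.7). In set3 mt- it was 603 of 4674 (12.9%, 12.0 to 13.9), against 766 of 1387 in dnmt1 mt- (55.2%, 52.6 to 57.8). A WT H3K9me1 peak touched 7.99% of the bins in mt+ and 8.47% in mt-, so the set3-only share in mt- was the nearest of the 4 to the background. Shared peaks lay at WT peaks in 85.5% of set3 and 81.9% of dnmt1 cases in mt+, and in 60.4% of set3 and 55.0% of dnmt1 cases in mt-. Among peaks with −log10 q of at least 5, the share at WT peaks was 44.8% for set3-only and 71.3% for dnmt1-only peaks in mt+, and 21.9% for set3-only and 74.5% for dnmt1-only peaks in mt-. Among summits whose local background was under 2 times the lowest of their list, it was 24.6% and 42.2% in mt+ and 11.6% and 41.7% in mt-, set3-only before dnmt1-only.

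Summed over the genome, the covered lengths of the mutants were closer inside WT peaks than outside them. Inside WT peaks there were 824 kb in set3 and 773 kb in dnmt1 in mt+, and 1113 kb in set3 and 1325 kb in dnmt1 in mt-. In mt+ this sum joined regions of opposite order, with 558 kb in set3 and 338 kb in dnmt1 in interiors, 227 kb in set3 and 306 kb in dnmt1 at ends, and 37.1 kb in set3 and 128 kb in dnmt1 on contigs. Outside WT peaks there were 713 kb in set3 and 209 kb in dnmt1 in mt+, and 2017 kb in set3 and 441 kb in dnmt1 in mt-. The share of the list's length inside WT peaks was 53.6% in set3 and 78.7% in dnmt1 in mt+, and 35.6% in set3 and 75.04% in dnmt1 in mt-. Peaks in 1 mutant only outside WT were small in both mutants. In set3 the median was 358 bp with none over 1.68 kb in mt+, and 342 bp with none over 1.79 kb in mt-. In dnmt1 the median was lower, 301 bp in mt+ and 280 bp in mt-, with a widest of 17.5 kb and 1.40 kb. The set3-only peaks outside WT lay at median distances of 87.8 kb (mt+) and 26.2 kb (mt-) from dnmt1 peaks. For bins without a dnmt1 peak, of which every 20th was taken, it was 94.8 kb (mt+) and 30.6 kb (mt-). The dnmt1-only peaks outside WT lay at medians of 18.02 kb in mt+ and 4.75 kb in mt- from the nearest set3 peak, against 23.5 kb and 9.03 kb for bins without a set3 peak. Peaks in 1 mutant only at WT lay nearer, at 7.03 kb in set3 and 3.78 kb in dnmt1 in mt+, and 3.92 kb in set3 and 3.41 kb in dnmt1 in mt-.

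At WT peaks, the set3-only and dnmt1-only peaks occupied different surroundings. H3K4me3 is the mark of active promoters, and the distance to the nearest WT H3K4me3 peak serves here as a measure of how deep in promoter-free chromatin a peak lies. Among peaks of chromosome interiors, the median distance in mt+ was 2.402 kb for the 546 set3-only peaks at WT and 11.8 kb for the 268 dnmt1-only peaks. In mt- it was 2.25 kb for the 573 set3-only peaks and 11.03 kb for the 641 dnmt1-only peaks. Every 20th bin of the chromosomes gave 2.29 kb in mt+ and 2.26 kb in mt-, near the set3-only value. The shared peaks at WT were in between, at 3.32 kb in set3 and 3.2 kb in dnmt1 in mt+ and 3.18 kb in set3 and 2.93 kb in dnmt1 in mt-. The set3-only and dnmt1-only peaks also differed in how often they lay in wide WT intervals. These were formed by joining WT peaks of both strains over gaps of up to 5 kb and keeping those of at least 20 kb. The interior ones spanned 5.93 Mb, of which WT peaks covered 70.7% in mt+ and 75.3% in mt-. All interior WT peaks covered 6533 kb in mt+ and 6926 kb in mt-. The peak shares that follow were not compared with the share of WT length in wide intervals. Of the interior peaks in 1 mutant only at WT, 64.7% in set3 and 81.3% in dnmt1 lay in such an interval in mt+, and 59.7% in set3 and 86.9% in dnmt1 in mt-. The WT peak they lay at had a median width of 5.97 kb for set3-only and 14.0 kb for dnmt1-only peaks in mt+. In mt- it was 4.40 kb for set3-only and 15.4 kb for dnmt1-only peaks. Shared interior peaks at WT lay in a wide interval in 81.0% of set3 and 79.9% of dnmt1 cases in mt+. In mt- it was 78.5% of set3 and 77.4% of dnmt1 cases. These shares were nearer those of the dnmt1-only peaks, while the H3K4me3 distances of shared peaks were nearer those of the set3-only peaks.

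By region, set3 covered less than dnmt1 at chromosome ends and on contigs, and more in chromosome interiors, in both strains. The 34 ends, taken as 50 kb inward from each tip, span 1.7 Mb. Ends held 237 kb of set3 and 375 kb of dnmt1 peaks in mt+, a ratio of set3 to dnmt1 of 0.633, and 301 kb of set3 and 380 kb of dnmt1 peaks in mt-, a ratio of 0.791. Contigs, which are sequences not placed on a chromosome, held 37.4 kb of set3 and 133 kb of dnmt1 peaks in mt+ (ratio 0.283) and 65.4 kb of set3 and 113 kb of dnmt1 peaks in mt- (ratio 0.579). Interiors held 1247 kb of set3 and 468 kb of dnmt1 peaks in mt+ (ratio 2.66) and 2763 kb of set3 and 1272 kb of dnmt1 peaks in mt- (ratio 2.17). Ends made up 15.4% of the covered length in set3 and 38.2% in dnmt1 in mt+. In mt- they made up 9.61% in set3 and 21.5% in dnmt1, and in WT 7.82% (mt+) and 7.57% (mt-). In an additive fit of log2 length on genotype and strain, added after seeing the data, the log2 ratio of set3 to dnmt1 was -0.50 ± 0.16 at ends, 1.27 ± 0.15 in interiors and -1.31 ± 0.52 on contigs (SE, n = 2 strains). With 1 residual degree of freedom the 95% intervals, -2.53 to 1.53, -0.60 to 3.14 and -7.88 to 5.27, all included 0. With lists of equal numbers of peaks the interior ratio was 1.44 in mt+ and 1.16 in mt-. Among summits of low local background, the mt+ ratio was 0.954 at ends and 0.789 on contigs, and the mt- ratio 0.792 at ends and 0.776 on contigs. High local background was more frequent at ends and on contigs than in interiors. In mt+ it was over 2 times the lowest of its list for 14.9% of set3 and 35.9% of dnmt1 peaks at ends, 61.1% of set3 and 76.6% of dnmt1 peaks on contigs, and 5.63% of set3 and 17.3% of dnmt1 peaks in interiors, and its part in these ratios was not tested beyond that.

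Which peaks were shared also depended on the region. At ends, 83.6% of set3 and 64.1% of dnmt1 peaks were shared in mt+, and 81.1% of set3 and 53.2% of dnmt1 peaks in mt-. On contigs, 91.7% of set3 and 40.5% of dnmt1 peaks were shared in mt+, and 80% of set3 and 55.0% of dnmt1 peaks in mt-. In interiors, 15.1% of set3 and 41.5% of dnmt1 peaks were shared in mt+, and 20.3% of set3 and 48.3% of dnmt1 peaks in mt-. At ends and on contigs, most set3 peaks thus fell within what dnmt1 also held. The other mutant's coverage differs by region too. The dnmt1 peaks covered 22.1% of the ends and 0.423% of the interiors in mt+, and 22.4% of the ends and 1.15% of the interiors in mt-. The set3 peaks covered 14.0% of the ends and 1.13% of the interiors in mt+, and 17.7% and 2.50% in mt-. Of the set3-only peaks outside WT, 1504 of 1525 in mt+ and 4026 of 4071 in mt- were interior. Interiors span 110.61 of the 114.191 Mb, so these counts were near the share of sequence. Of the dnmt1-only peaks outside WT, 249 of 274 in mt+ and 615 of 621 in mt- were interior.

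**Figure D2:**
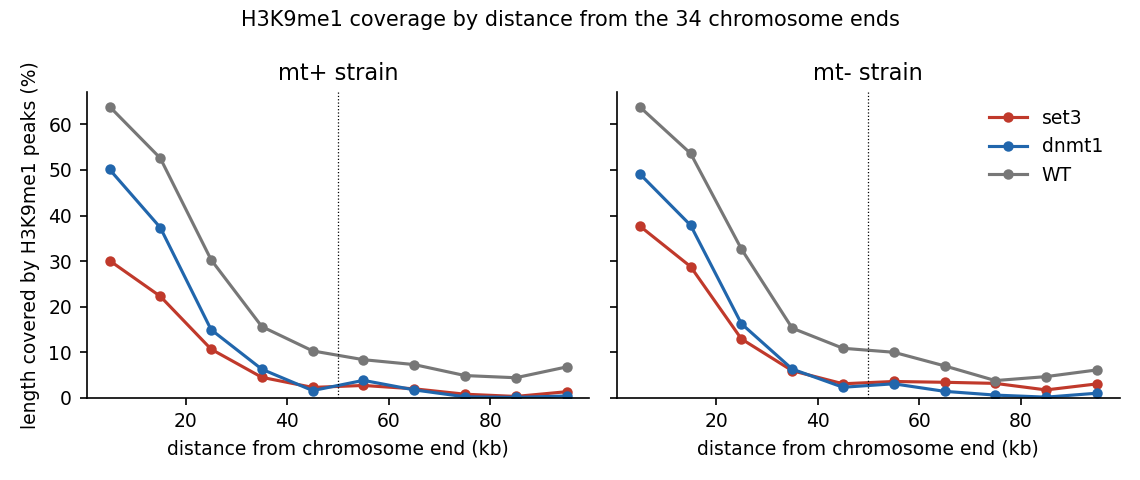
Percent of the length covered by H3K9me1 peaks (y axis) in windows of 10 kb from the tip of the 34 chromosome ends inward (x axis, kb), for set3, dnmt1 and WT in each strain. In the outermost window set3 covers 30.1% and dnmt1 50.1% in mt+, and beyond 30 kb the mutants lie within 3 percentage points of each other. The dotted line marks 50 kb. The mt+ panel includes 3 ends where the dnmt1 mt+ list stood apart from every other list.

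Over all 34 ends, the difference was greatest at the tips. The mt+ values include 3 ends, described below, where the dnmt1 mt+ list stood apart, and the profile was not computed without them. In the outermost 10 kb, set3 peaks covered 30.1%, dnmt1 peaks 50.1% and WT peaks 63.9% in mt+, and set3 peaks 37.7%, dnmt1 peaks 49.1% and WT peaks 63.8% in mt-. At 20 to 30 kb, set3 covered 10.7% and dnmt1 15.0% in mt+, and set3 12.9% and dnmt1 16.3% in mt-. Just inside the 50 kb limit, at 40 to 50 kb, set3 covered 2.29% and dnmt1 1.59% in mt+, and set3 3.09% and dnmt1 2.32% in mt-. Just outside it, at 50 to 60 kb, set3 covered 2.72% and dnmt1 3.83% in mt+, and set3 3.59% and dnmt1 3.08% in mt-.

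Over the 34 ends one by one, dnmt1 was the greater at 26 and set3 at 6 in mt+, and dnmt1 at 25 and set3 at 9 in mt-. The median end held 5.599 kb in set3, 10.7 kb in dnmt1 and 18.2 kb in WT in mt+, and 7.91 kb in set3, 12.1 kb in dnmt1 and 18.4 kb in WT in mt-. In both strains, dnmt1 was the greater at 20 ends and set3 at 2, the strains disagreed at 10, and the mutants were equal in a strain at 2. The 2 ends with more in set3, singled out after their values were seen, held little in either mutant. The right end of chromosome 1 had 2.47 kb in set3 and none in dnmt1 in mt+, and 2.85 kb in set3 and 1.11 kb in dnmt1 in mt-. The left end of chromosome 12 had 1.16 kb in set3 and 0.284 kb in dnmt1 in mt+, and 1.13 kb in set3 and 0.723 kb in dnmt1 in mt-. The set3 excess at any end was at most 2.47 kb in mt+ and 1.73 kb in mt-. Among ends with at least 5 kb in a mutant list, the left end of chromosome 13 had the greatest dnmt1 excess by the smaller of its differences in the strains, with 9.31 kb in set3 and 16.5 kb in dnmt1 in mt+, and 11.5 kb in set3 and 18.3 kb in dnmt1 in mt-. The left end of chromosome 5 followed, with 8.66 kb in set3 and 16.0 kb in dnmt1 in mt+, and 11.1 kb in set3 and 16.9 kb in dnmt1 in mt-. The right end of chromosome 10 had 4.25 kb in set3 and 9.43 kb in dnmt1 in mt+, and 5.65 kb in set3 and 17.6 kb in dnmt1 in mt-. The right ends of chromosomes 15 and 7 were the other 2 chosen by the same rule, at 9.05 kb in set3 and 14.0 kb in dnmt1, and 6.96 kb in set3 and 12.2 kb in dnmt1, in mt+. Some ends kept nearly all of their WT H3K9me1 in both mutants. The left end of chromosome 2 held 18.9 kb in set3, 19.2 kb in dnmt1 and 20.8 kb in WT in mt+, and 19.6 kb in set3, 19.6 kb in dnmt1 and 20.8 kb in WT in mt-.

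**Figure D3:**
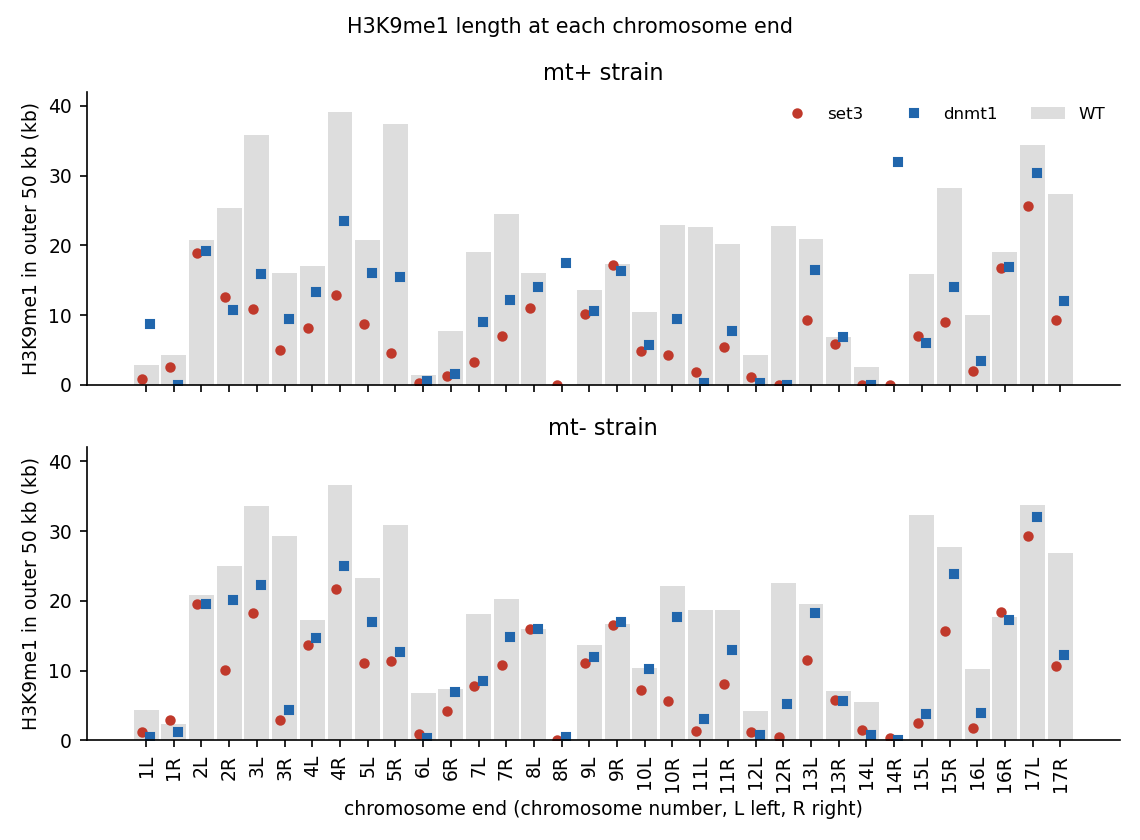
Length of H3K9me1 peaks in the outermost 50 kb of each chromosome end (y axis, kb), in set3 (circles), dnmt1 (squares) and WT (grey bars), by chromosome and side (x axis). The dnmt1 squares lie above the set3 circles at 26 of 34 ends in mt+ and 25 in mt-, and above the WT bar by over 5 kb at 3 ends in mt+.

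At 3 ends the dnmt1 mt+ list stood apart from every other list. The right end of chromosome 14 held no set3 peak, 31.9 kb in dnmt1 and no WT peak in mt+, against 0.252 kb in set3 mt- and none in dnmt1 mt-. The right end of chromosome 8 held no set3 peak, 17.5 kb in dnmt1 and no WT peak in mt+, against none in set3 mt- and 0.496 kb in dnmt1 mt-. The left end of chromosome 1 held 0.862 kb in set3, 8.67 kb in dnmt1 and 2.85 kb in WT in mt+, against 1.18 kb in set3 mt- and 0.505 kb in dnmt1 mt-. The median local background of the dnmt1 mt+ peaks there was 257 on chromosome 14, 245 on chromosome 8 and 248 on chromosome 1, against 18.9 at the bottom of that list. Without these 3 ends, chosen after their values were seen, the other 31 held 237 kb in set3 and 317 kb in dnmt1 in mt+, a ratio of 0.747, and the mt- ratio was 0.789.

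On the 40 contigs, dnmt1 was the greater in both strains on 10 and set3 on 3, and neither mutant had a peak on 23 in mt+ and 24 in mt-. Set3 lengths on those 3, contigs 20, 24 and 26, were under 1 kb in each strain. The contigs described next are the 7 with at least 5 kb in at least 2 of the mutant lists, a choice that leaves those 3 out and lets contig 40 in through dnmt1 alone. Contig 27 had 4.87 kb in set3 and 39.7 kb in dnmt1 in mt+, and 12.4 kb in set3 and 25.0 kb in dnmt1 in mt-, beside 61.9 kb (mt+) and 60.5 kb (mt-) in WT. Contig 40 had no set3 peak and 10.4 kb in dnmt1 in mt+, and 1.05 kb in set3 and 14.0 kb in dnmt1 in mt-. Contig 30 had 5.73 kb in set3 and 17.7 kb in dnmt1 in mt+, and 6.66 kb in set3 and 16.7 kb in dnmt1 in mt-. Contigs 33 and 37 had 3.29 kb and 3.82 kb in set3 against 16.4 kb and 22.0 kb in dnmt1 in mt+, and came closer in mt-, at 8.05 kb and 9.03 kb in set3 against 10.7 kb and 10.8 kb in dnmt1. Contig 51, of 15.6 kb, had 10.6 kb in 11 peaks in set3, 13.6 kb in 4 peaks in dnmt1 and 14.5 kb in WT in mt+, and 13.2 kb in set3, 14.4 kb in dnmt1 and 14.5 kb in WT in mt-. Contig 32, of 33.96 kb, had 6.78 kb in set3, 8.69 kb in dnmt1 and 14.8 kb in WT in mt+, and 10.99 kb in set3, 14.7 kb in dnmt1 and 14.8 kb in WT in mt-.

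In chromosome interiors the set3 length exceeded the dnmt1 length on all 17 chromosomes in both strains. The ratio ran from 1.53 on chromosome 13 to 4.77 on chromosome 10 in mt+, with a median of 2.75, and from 1.32 on chromosome 11 to 3.25 on chromosome 10 in mt-, with a median of 2.22. Most of this excess lay outside WT peaks. Interior length inside WT peaks was 558 kb in set3 and 338 kb in dnmt1 in mt+, and 769 kb in set3 and 836 kb in dnmt1 in mt-, so its order was not the same in the strains. Interior length outside WT peaks was 689 kb in set3 and 130 kb in dnmt1 in mt+, and 1994 kb in set3 and 435 kb in dnmt1 in mt-.

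The wide WT intervals numbered 117 and spanned 6.91 Mb, with 90 in interiors, 18 at ends and 9 on contigs. Set3 was the greater in both strains in 39, dnmt1 in 31, and the strains disagreed in 21. The direction went by region. At ends dnmt1 was the greater in both strains in 13 of 18 intervals and set3 in 0, and on contigs dnmt1 in 6 of 9 and set3 in 1. In interiors set3 was the greater in both strains in 38 of 90 and dnmt1 in 12. Summed over the interior intervals, set3 covered 7.21% and dnmt1 4.88% in mt+, and set3 9.90% and dnmt1 12.4% in mt-, of which WT peaks covered 70.7% and 75.3% in mt+ and mt-. Set3 led in more interior intervals in mt-, 46 against 31, while dnmt1 covered more in sum.

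**Figure D4:**
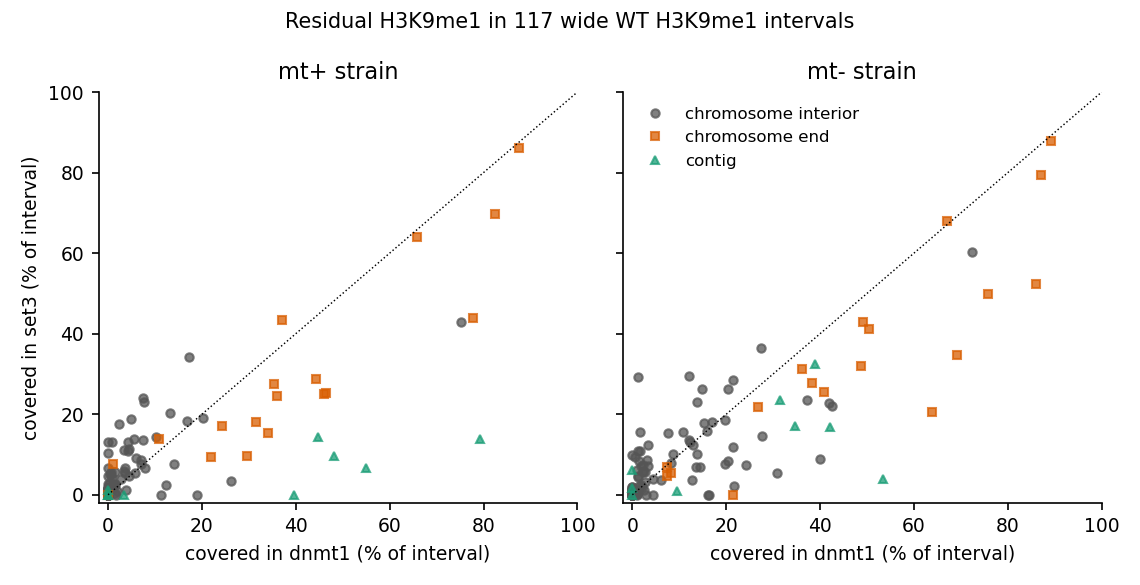
Percent of each of 117 wide WT H3K9me1 intervals covered by set3 peaks (y axis) and by dnmt1 peaks (x axis) in each strain, by region. Points below the dotted line of equality are intervals where dnmt1 covers more, as 14 of 18 intervals at ends do in mt+ and 17 of 18 in mt-.

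The intervals named here were chosen for the greatest difference of 1 sign in both strains, so their recurrence is fixed by the choice, and 17 of the 90 interior intervals went opposite ways. On chromosome 15, 1927652 to 2007750, set3 peaks covered 18.9% and dnmt1 peaks 4.93% in mt+, and set3 26.3% and dnmt1 14.9% in mt-. On chromosome 13, 2970589 to 2991377, set3 covered 13.0% and dnmt1 none in mt+, and set3 23.0% and dnmt1 13.8% in mt-. On chromosome 1, 316298 to 337946, set3 covered 34.2% and dnmt1 17.2% in mt+, and set3 36.5% and dnmt1 27.5% in mt-. The other 2 of the 5 with the greatest set3 excess were chromosome 15, 2186769 to 2254626, and chromosome 7, 4475449 to 4502866. In the other direction, chromosome 1, 1151888 to 1233324, had 3.35% in set3 and 26.2% in dnmt1 in mt+, and 8.98% in set3 and 39.9% in dnmt1 in mt-. Chromosome 3, 7083877 to 7107305, had none in set3 and 18.8% in dnmt1 in mt+, and 2.29% in set3 and 21.7% in dnmt1 in mt-. The other 3 with the greatest dnmt1 excess were contig 40, contig 30 and the left end of chromosome 13. The chromosome 1 interval is the neighbour of another wide interval, 1046739 to 1131997, singled out after its values were seen, where the order was the opposite, with 23.0% in set3 and 7.57% in dnmt1 in mt+, and 26.2% in set3 and 20.3% in dnmt1 in mt-. WT peaks covered over 80% of both neighbours in both strains.

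Seen from the WT peaks, most were met by a peak in neither mutant, and those met in both were wide. Of 3831 WT peaks in mt+, 239 were met by a peak in both mutants, 279 in set3 only, 152 in dnmt1 only and 3161 in neither. Of 4113 WT peaks in mt-, 422 were met in both, 298 in set3 only, 235 in dnmt1 only and 3158 in neither. WT peaks met in both had a median width of 5982 bp in mt+ and 4626.5 bp in mt-, against 632 bp and 595 bp for those met in neither. A wider WT peak is met by at least 1 bp of another list more easily, and the part of width was not tested. Of all bins of 500 bp, set3 peaks touched 2.48% in mt+ and 5.28% in mt-, and dnmt1 peaks 1.34% and 2.65%. Of the 219 WT peaks at ends in mt+, 18 were met in set3 only and 43 in dnmt1 only. Of the 179 at ends in mt-, 3 were met in set3 only and 35 in dnmt1 only. Of the 3384 in interiors in mt+, 252 were met in set3 only and 93 in dnmt1 only. Of the 3697 in interiors in mt-, 284 were met in set3 only and 186 in dnmt1 only.

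Other marks separated the classes of residual peaks. H3K4me3 marks active promoters, and H3K4me1 has been linked to silenced euchromatin in Chlamydomonas. These marks and H3K9me3 were mapped in WT and dnmt1 but not in set3, so none of the overlaps below was seen in set3 cells. Set3-only peaks outside WT lay at a WT H3K4me1 peak in 14.4% of cases in mt+ and 21.2% in mt-, against 1.58% and 3.94% of all bins. The dnmt1 H3K4me1 list, which reached 11% of bins in mt+, met 55.2% of them there, and the one in mt-, which reached 0.819% of bins, met 5.26%. The dnmt1-only peaks outside WT were alike, with a WT H3K4me1 peak at 10.6% in mt+ and 20.9% in mt-. Peaks outside WT that the mutants shared had WT H3K4me1 at 23.5% of set3 and 21.9% of dnmt1 peaks in mt+, and at 33.3% of set3 and 29.9% of dnmt1 peaks in mt-. At WT peaks the classes differed, with WT H3K4me1 at 9.22% of set3-only and 2.03% of dnmt1-only peaks in mt+, and 12.9% of set3-only and 1.44% of dnmt1-only peaks in mt-. H3K4me3 was at no more than 3.24% of any class in either genotype, against 17.9% to 18.7% of bins. H3K9me3 of dnmt1 cells met the shared peaks at WT, at 24.8% of set3 and 18.6% of dnmt1 peaks in mt+. In mt- it met 21.0% of set3 and 14.4% of dnmt1 peaks of this class. The bins gave 12.8% in mt+ and 13.2% in mt-, so the dnmt1 mt- share was near the background. H3K9me3 of WT cells met 3.12% of set3 and 2.95% of dnmt1 peaks of this class in mt+, and 1.45% of set3 and 1.78% of dnmt1 peaks in mt-, below the 12.4% and 13.1% of bins. The dnmt1 H3K9me3 list met 2.22% of set3-only and 7.34% of dnmt1-only peaks at WT in mt+, and 1.99% of set3-only and 2.48% of dnmt1-only peaks in mt-, all below the bins.

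**Figure D5:**
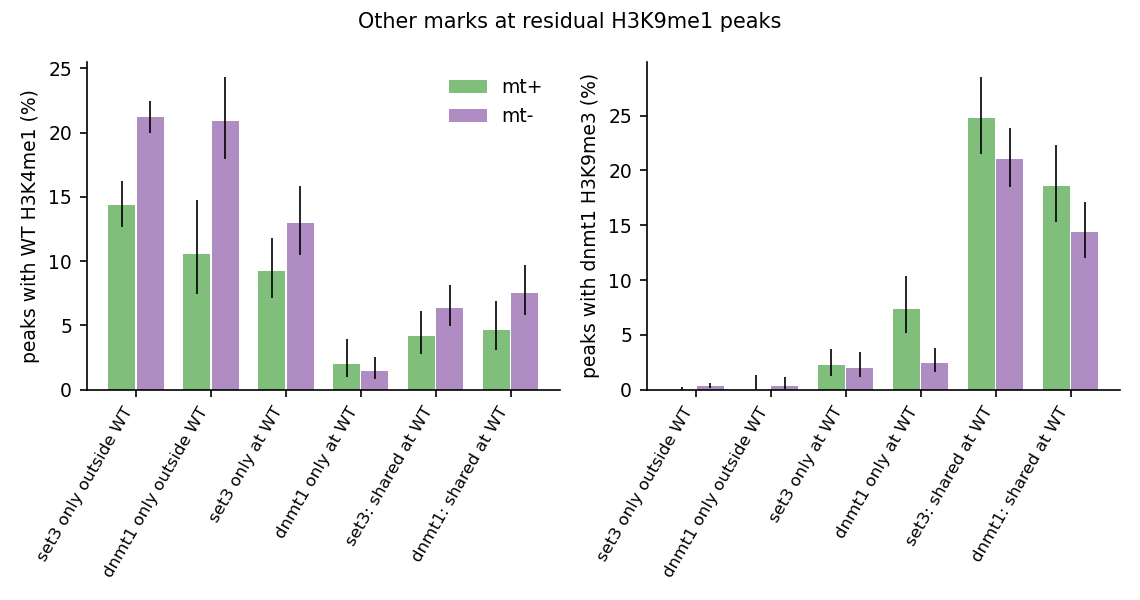
Percent of residual H3K9me1 peaks (y axis) that overlap a WT H3K4me1 peak (left) or a dnmt1 H3K9me3 peak (right) of the same strain, by class and list (x axis), with 95% Wilson intervals as error bars. The dnmt1-only peaks at WT have the least WT H3K4me1 of the classes plotted, 2.03% in mt+ and 1.44% in mt-, and the shared peaks at WT have the most dnmt1 H3K9me3.

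Peaks at WT met a peak of the same mutant in the other strain more often than peaks outside WT, and mt+ peaks met the larger mt- lists more often than the reverse. Of the set3-only peaks in mt+, 71.2% at WT and 49.9% outside WT met a set3 peak in mt-, and in the other direction 36.8% and 14.8% of the mt- peaks met one in mt+. Of the dnmt1-only peaks in mt+, 80.5% at WT and 14.2% outside WT met a dnmt1 peak in mt-, and in the other direction 26.5% and 3.70% did. A set3 peak of the other strain met 33.9% at WT and 30.7% outside WT in mt+, and 9.01% and 13.4% in mt-. Outside WT, dnmt1-only peaks thus met the other mutant more often than their own, against lists of unlike reach. In mt+ the 30.7% stood against a set3 mt- list touching 5.28% of bins, and the 14.2% against a dnmt1 mt- list touching 2.65%. In mt- the 13.4% stood against 2.48% of bins, and the 3.70% against 1.34%. For set3-only peaks, a dnmt1 peak of the other strain met 43.5% and 17.2% in mt+, and 7.30% and 2.43% in mt-. The dnmt1 lists that these set3-only peaks met touched 2.65% (mt-) and 1.34% (mt+) of bins. The set3 lists are the longer, and the part of list size was not tested. Of the shared peaks at WT, 90.8% of set3 and 90.9% of dnmt1 peaks in mt+ met a peak of the same mutant in mt-, and 67.6% of set3 and 50.8% of dnmt1 peaks in mt- met one in mt+. By length common to a pair of lists over the length in either, the strains of set3 had 24.8% and the strains of dnmt1 33.3%, against 19.09% between set3 and dnmt1 in mt+ and 21.5% in mt-. The set3 mt+ list was nearly as close to the dnmt1 mt- list, at 23.6%, as to the set3 mt- list.

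Joined across the 4 lists, the residual peaks made 8229 loci. Of these, 312 were met in both mutants and both strains, 694 in set3 only in both strains and 178 in dnmt1 only in both strains. The set3-only loci were almost all interior, 684 of 694 (98.6%), with 8 at ends. A WT peak was absent in both strains from 513 of them (73.9%). Neither trait was particular to this pattern. Among loci met by 1 list alone, 84.3% (set3) and 72.1% (dnmt1) lacked a WT peak for mt+. For mt- these shares were 89.0% and 48.4%. Such loci were interior in 96.9% (set3) and 84.5% (dnmt1) of cases for mt+, and 99.0% and 93.8% for mt-. The dnmt1-only loci included 130 interior, 28 contig and 20 end loci, and 163 of 178 had a WT peak in both strains. The loci of all 4 lists included 227 interior, 55 end and 30 contig loci, and 269 of 312 had a WT peak in both strains. With −log10 q of at least 5, the counts were 177 for both mutants, 211 for set3 only and 132 for dnmt1 only, and the dnmt1-only count was 86 after joining peaks over gaps of up to 1 kb and 103 among summits of low local background.

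The loci held most strongly by all 4 lists had WT peaks in both strains and were mostly short interior stretches. They were ranked by their place in each list by the authors' fold over local background. The first was on chromosome 15, 2653393 to 2657048, where peaks covered 3.31 kb in set3 and 2.84 kb in dnmt1 in mt+, and 3.37 kb in set3 and 3.503 kb in dnmt1 in mt-. Its fold was within the top 0.0718% of the set3 and 0.0801% of the dnmt1 list in mt+, and the top 0.0162% of the set3 and 1.47% of the dnmt1 list in mt-. On chromosome 2, 3 of the first 8 lay side by side, at 2597993 to 2599099, 2601809 to 2603000 and 2603836 to 2605095, each with 0.926 to 1.25 kb in every mutant list. On chromosome 6, 7256748 to 7261346 had 4.60 kb in set3 and 3.16 kb in dnmt1 in mt+, and 4.37 kb in set3 and 3.98 kb in dnmt1 in mt-, and the highest fold of the set3 mt+ list. The other 3 were chromosome 17, 6031871 to 6034586, contig 51, and the tip of chromosome 13. The 3 loci with the greatest covered length, averaged over the 4 lists, were all at chromosome ends. The right end of chromosome 4, 4096483 to 4116729, had 10.97 kb in set3 and 19.97 kb in dnmt1 in mt+, and 18.3 kb in set3 and 20.2 kb in dnmt1 in mt-. In the list of set3 mt+ it was broken into 17 peaks and in that of dnmt1 mt+ into 2. The others were the left end of chromosome 2, 570 to 20170, and the right end of chromosome 16, 8024783 to 8041977, where the mutants differed by under 0.5 kb in each strain.

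The dnmt1-only loci chosen by fold rank or by mean covered length included a pair of interior neighbours on chromosome 5. There 1746592 to 1751284, chosen by length, had 1.10 kb in dnmt1 mt+ and 4.51 kb in dnmt1 mt-, and 1751756 to 1754372, chosen by rank, had 1.84 kb in dnmt1 mt+ and 2.47 kb in dnmt1 mt-, with no set3 peak in either strain. On chromosome 3, 7009322 to 7012180 had 2.55 kb in dnmt1 mt+ and 2.86 kb in dnmt1 mt-. On chromosome 17, 6131550 to 6134646, chosen by length, had 2.53 kb and 3.10 kb. On chromosome 1, 1195385 to 1196503, inside the interval that dnmt1 led, had 0.954 kb and 1.12 kb. On chromosome 4, 4117946 to 4118296 and 4123884 to 4124234 lay just beyond the long shared end locus, toward the tip. The other 3 by rank were chromosome 10, 6795600 to 6796193, chromosome 15, 5866086 to 5866406, and chromosome 4, 934144 to 934646. All of these had a WT peak in both strains.

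The set3-only loci chosen by fold rank or by mean covered length lay mostly on chromosomes 15 and 17. On chromosome 17, 6240547 to 6243929 had 3.17 kb in set3 mt+ and 3.38 kb in set3 mt-, and 6260788 to 6264283 had 3.09 kb and 3.08 kb, both chosen by length, and 6210186 to 6210749, chosen by rank, had 0.483 kb and 0.564 kb, with no dnmt1 peak in either strain. On chromosome 15, 2686051 to 2688686, chosen by length, and 2689483 to 2690663, chosen by rank, were neighbours, with 0.891 kb and 0.788 kb in set3 mt+ and 2.64 kb and 1.18 kb in set3 mt-. Chromosome 15 also held 1947769 to 1948250, inside the interval with the greatest set3 excess, and 2759514 to 2759845. The last with a WT peak was chromosome 12, 6696273 to 6697207, with 0.935 kb in set3 mt+ and 0.814 kb in set3 mt-. The 3 without a WT peak in either strain were all under 0.4 kb, at chromosome 15, 1280398 to 1280680, chromosome 13, 2053185 to 2053542, and chromosome 17, 4532767 to 4533160.

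The sex-determining region lies on chromosome 6, and the files also name a sequence mating_type_plus of 365 kb. In its first 1 Mb, chromosome 6 held 8.61 kb in set3, 3.49 kb in dnmt1 and 36.4 kb in WT in mt+, and 54.3 kb in set3, 13.6 kb in dnmt1 and 114 kb in WT in mt-. Which mating type this chromosome 6 sequence was taken from is not stated in the labels or files, so lengths there are not comparable between the strains. Of the 113 set3 mt- peaks there 60 lay at a WT peak and 23 were shared, while 25 of the 36 dnmt1 mt- peaks were shared. On mating_type_plus there were 22 set3 and 16 dnmt1 peaks in mt+, over 15.0 kb in set3 and 6.44 kb in dnmt1, and 15 of the 16 dnmt1 peaks were shared. Of those, 19 set3 and 15 dnmt1 peaks lay between 220 and 310 kb, and 16 set3 and 15 dnmt1 peaks were outside WT peaks. In mt- there was 1 peak in each mutant, of 0.902 kb in set3 and 0.951 kb in dnmt1, and these overlapped each other at a WT peak. How many of the mt+ peaks there come from sequence with copies elsewhere was not tested.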

How the data were processed

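ChIP-seq peak lists of 4 histone marks from 3 genotypes and 2 strains were used, 1 list per library. The authors' lists were called with MACS2 2.2.7.1, and Trim Galore 0.6.7, Bowtie2 2.4.2, Picard and deepTools 3.5.1 are also named, per the submitters' processing notes. No source used here names the genome build, coordinates are those of the files counted from 1, and no gene names or sequences were attached to them. For each peak the authors deposited −log10 values of p and q, the fold over local background (a plain ratio) and a score for display. Every deposited −log10 q-value was above 2. The fold and the −log10 q-value were the authors', and were used to rank or filter peaks within a list.

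Overlap of at least 1 bp, distances, regions and loci were computed with Python 3.11.15, numpy 2.4.6 and pandas 2.3.3. A peak's region was that of its midpoint, and each sequence ended at its farthest peak in any list, 114 Mb in all. The local background at each summit was recovered from the deposited fold and −log10 p-value, and this and the overlap functions were tested on simulated data. The members and lists were chosen with earlier results of these data known. Named loci were the 8 best by their worse fold rank and the 3 with the greatest mean covered length of each pattern. Named ends and intervals were the 5 with the greatest difference of 1 sign in both strains, and named contigs had at least 5 kb in at least 2 lists. Input libraries were not analysed here. Alternatives were a q-value limit, overlap of 50% of the shorter peak, equal list sizes, joined peaks, both WT lists, ends of 25 and 100 kb and, chosen after seeing the data, low local background, leaving out 3 ends and a fit with strain as a block.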

Additional observations from a re-analysis of the deposited data

Results flagged for a closer look

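The order of set3 and dnmt1 was opposite in the strains in 1 of the 4 region ratios and, with differences of at least 5 percentage points in both strains, in 2 of the 21 wide WT intervals where the strains disagreed. The difference between the strains was not tested in any of these. On mating_type_plus the ratio of set3 to dnmt1 length was 2.33 in mt+, where the set3 list had 22 peaks and the dnmt1 list 16, and 0.948 in mt-, where each had 1. Those mt- peaks were of 0.902 kb in set3 and 0.951 kb in dnmt1, so the order in mt- rests on 1 peak per list. In the wide WT interval at the right end of chromosome 2, 8626416 to 8655497, set3 minus dnmt1 coverage was 6.41 percentage points in mt+, with 43.5% in set3 and 37.1% in dnmt1, and -34.4 points in mt-, with 34.7% in set3 and 69.1% in dnmt1. In the interior interval of chromosome 12, 6836195 to 6925216, it was 6.93 points in mt+, with 20.2% in set3 and 13.3% in dnmt1, and -13.6 points in mt-, with 23.5% in set3 and 37.2% in dnmt1. The dnmt1 mt- list was called at the highest background of the 4 mutant lists, and its part in these reversals was not tested.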

How the results depend on the processing

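Of 77 values under an alternative, no ratio of set3 to dnmt1 crossed 1, and 39 values moved by less than their counting interval or by under 1.5 times. The share of set3-only peaks at WT stayed below that of dnmt1-only peaks in every setting run, by 17.6 to 32.1 points in mt+ and 30.1 to 52.7 points in mt-. With −log10 q of at least 5, sharing was 31.5% in set3 and 39.2% in dnmt1 in mt+, and 26.6% and 39.2% in mt-. The WT share was 44.8% and 71.3% in mt+, and 21.9% and 74.5% in mt-, set3-only before dnmt1-only here and below. Loci of both mutants numbered 177 and of set3 only 211. With 50% of the shorter peak overlapped, sharing was 22.0% in set3 and 41.8% in dnmt1 in mt+, and 22.1% and 44.3% in mt-, and the WT share of dnmt1-only peaks in mt- was 52.0%. With equal list sizes, sharing was 35.9% in set3 and 33.5% in dnmt1 in mt+, and 36.7% and 33.4% in mt-, so the order of the mutants turned round, the WT share was 40.6% for set3-only in mt+, and 19.3% and 51.1% in mt-, and the interior ratio 1.44 in mt+ and 1.16 in mt-. With peaks joined over 1 kb, sharing was 18.3% in set3 mt+, 22.5% in set3 mt- and 52.5% in dnmt1 mt-, and loci of dnmt1 only numbered 86. With both WT lists, the set3-only WT share in mt- was 14.6%. With low local background, sharing of set3 peaks was 19.8% (mt+) and 21.5% (mt-), the WT share 24.6% and 42.2% in mt+ and 11.6% and 41.7% in mt-, the mt+ ratio 0.954 at ends and 0.789 on contigs, and loci of dnmt1 only numbered 103. The mt- ratios in this setting, 0.792 at ends and 0.776 on contigs, moved by under 1.5 times. The cause of these moves was not tested, except that stricter limits leave fewer peaks. Depth limits the lists, since a peak missing from a list can lie just below its threshold.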
